A study of Mus musculus with 8 samples.

Results

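GM-CSF, IL-3 and IL-5 signal through receptors that are built from 2 kinds of chain, and 5 mouse genes encode those chains. Csf2rb encodes the beta chain that all 3 receptors share, and Csf2rb2 encodes a closely related beta chain that serves IL-3 alone. Csf2ra, Il3ra and Il5ra encode the alpha chains that bind GM-CSF, IL-3 and IL-5. The genes were selected by symbol, and where a gene has several probe sets the probe set with the highest mean log2 intensity over all 8 arrays represents it. Each of the 5 genes had exactly 1 probe set annotated to its symbol alone, so that step made no choice here, and all 5 are among the 19938 genes tested. No filter on low values was applied. The family was picked with the result of Csf2rb in these data known, so the p-values of its members describe them and are not independent evidence.

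An alpha chain binds its cytokine with low affinity, and joining a beta chain raises the affinity and allows signalling. The beta chain carries the kinase JAK2, which activates STAT5 and the RAS and PI3K pathways. These receptors support survival and output of myeloid cells: GM-CSF acts on granulocytes and macrophages, IL-3 on multipotent and mast cell progenitors, and IL-5 on eosinophils. G-CSF itself acts through a different receptor, a homodimer of the Csf3r product.

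The samples were hematopoietic stem cells from mouse bone marrow, sorted as KSL SLAM cells: c-Kit+, Sca-1+ and CD150+, and negative for lineage markers, CD48 and CD41. The mice had received G-CSF at 125 mcg per kg under the skin 2 times a day, or PBS (saline), for 36 h. There were 4 independent G-CSF arrays and 4 independent PBS arrays, each from the pooled cells of 5 to 10 mice, and RNA was amplified before hybridization to the MoGene 1.0 ST array. The labels used here give no strain, genotype, age or sex. The question here is which receptor chain transcripts differ between treated and control stem cells.

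Values are log2 of the deposited intensity, and a log2 difference of 1 is a doubling. PBS replicate 3 stood apart. The interquartile range of its genes was 1.68, the lowest of the 8 arrays, where the other 7 lay between 2.42 and 2.80. It correlated with them at 0.883 to 0.903 across genes, and they correlated with each other at 0.956 to 0.977. Of the markers of the sorted cells, Kit was at 10.24 to 10.94 and Slamf1, the gene of CD150, at 5.94 to 7.24. The transcripts of 2 surface markers that the sort gated against were measured as well, Cd48 at 6.66 to 8.95 and Itga2b (CD41) at 7.06 to 7.74. No detection calls were available, so presence or absence was not decided.

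After G-CSF, both beta chain genes were about 3 times as bright as after PBS, and the 3 alpha chain genes were close to their PBS values. Csf2rb rose 3.01-fold and passed the threshold, an adjusted p under 0.05 in limma over all genes. Csf2rb2 had a ratio of 2.99 and did not pass. Thus 1 of the 5 genes passed as higher and 0 as lower, where 0.0953% of all 19938 genes passed as higher and 0% as lower. At an unadjusted p under 0.05, 2 of the 5 were higher and 0 lower, against 6.07% and 2.94% of all genes. The G-CSF values lay above all PBS values in 2 of the 5, against 3.37% of all genes, and below all PBS values in 0 of the 5, against 2.78%.

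Csf2rb (probe set 10425066) lies on chromosome 15 from 78325800 to 78351001 in GRCm38.p6. Its log2 intensity was 7.15, 7.17, 6.39 and 7.23 in PBS replicates 1 to 4. In G-CSF replicates 1 to 4 it was 8.51, 8.77, 8.41 and 8.62. The groups did not overlap: the lowest G-CSF array was 1.18 above the highest PBS array, and PBS replicate 3 was the lowest of all. The G-CSF mean was 8.58 ± 0.15 (SD, n = 4) and the PBS mean 6.99 ± 0.40 (SD, n = 4). The log2 fold change was 1.59 ± 0.21 SE, with a 95% interval from 1.12 to 2.06 (limma adjusted p = 0.0198). Without PBS replicate 3 it was 1.39 (adjusted p = 0.0116), so it also passed without the array that stood apart. It did not pass without G-CSF replicate 1, 2 or 4 (adjusted p = 0.0947, 0.0957 and 0.0941), while the log2 fold change was then 1.53 to 1.61.

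Csf2rb2 (probe set 10430302) is the neighbour of Csf2rb, from 78282507 to 78305721 on the same chromosome. The genes are 20079 bases apart, with 0 annotated genes lying wholly between them. Its log2 intensity was 6.52, 6.08, 6.49 and 7.33 in PBS replicates 1 to 4, and 7.70, 8.34, 8.46 and 8.24 in G-CSF replicates 1 to 4. The groups did not overlap here either, but the gap was smaller, 0.37, because PBS replicate 4 was high and G-CSF replicate 1 low. The G-CSF mean was 8.19 ± 0.34 (SD, n = 4) and the PBS mean 6.61 ± 0.52 (SD, n = 4). The log2 fold change was 1.58 ± 0.27 SE, with a 95% interval from 0.98 to 2.18 (limma adjusted p = 0.0669). Without PBS replicate 4 it was 1.82 and passed (adjusted p = 0.0317), and without PBS replicate 3 it was 1.54 and did not (adjusted p = 0.135).

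The 2 beta chain genes are close relatives, and their probe sets may cross-hybridize. Probe sequences were not used here, so how much of each signal belongs to its own gene was not tested. Within the groups, their arrays fell in different orders. G-CSF replicate 3 was the lowest of the G-CSF arrays for Csf2rb and the highest for Csf2rb2. Among the PBS arrays, replicate 3 was the lowest for Csf2rb, 0.60 below the group mean, and replicate 2 was the lowest for Csf2rb2, 0.52 below. PBS replicate 4 was the highest of its group for both genes. The deviations of the 2 genes from their group means correlated at r = 0.19 as deposited. That r was -0.02 after renewed quantile normalization and 0.32 after median centring. In bulk samples such as these, more cells that carry a transcript and more transcript in each cell cannot be told apart.

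**Figure D1:**
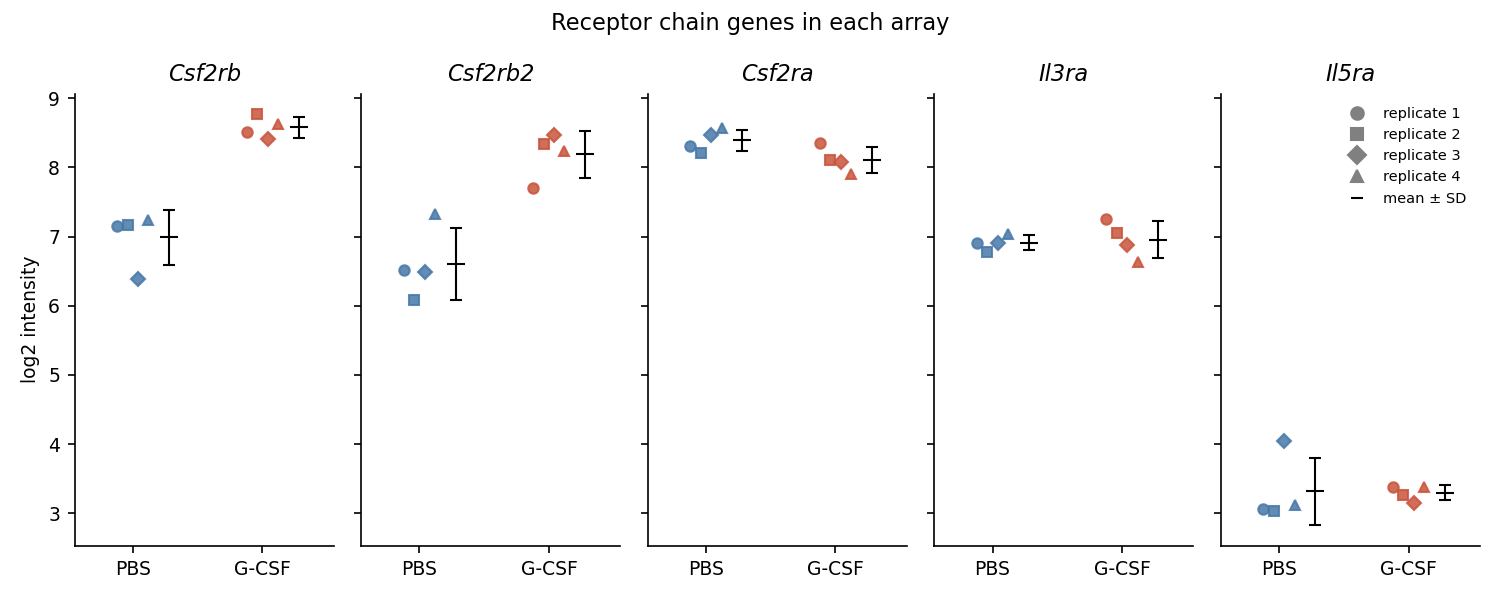
Log2 intensity of the 5 receptor chain genes (vertical axis) in 4 PBS and 4 G-CSF arrays, with a marker shape for each replicate and the mean ± SD beside the points. For Csf2rb and Csf2rb2 all G-CSF points lie above all PBS points, by 1.18 and 0.37, and for Csf2ra, Il3ra and Il5ra the groups overlap.

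Csf2ra (probe set 10468893), the alpha chain of the GM-CSF receptor, lies on chromosome 19 from 61217191 to 61228461. Its log2 intensity was 8.31, 8.21, 8.46 and 8.57 in PBS replicates 1 to 4, and 8.36, 8.10, 8.08 and 7.90 in G-CSF replicates 1 to 4. Of the G-CSF arrays, replicate 1 lay within the PBS range and the other 3 below it. The log2 fold change was -0.28 ± 0.17 SE, with a 95% interval from -0.65 to 0.10 (limma adjusted p = 0.586). It was negative under all 17 alternatives, between -0.38 and -0.20, and passed under none of them.

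Il3ra (probe set 10412760), the alpha chain of the IL-3 receptor, lies on chromosome 14 from 14345912 to 14355493. It was at 6.91, 6.78, 6.91 and 7.04 in PBS replicates 1 to 4 and at 7.26, 7.05, 6.88 and 6.63 in G-CSF replicates 1 to 4. The G-CSF values spread to both sides of the PBS values. The log2 fold change was 0.05 ± 0.18 SE, with a 95% interval from -0.34 to 0.44 (limma adjusted p = 0.912), and it turned to -0.053 without G-CSF replicate 1 and to -0.044 after renewed quantile normalization. Csf2ra and Il3ra ordered the G-CSF arrays alike, with replicate 1 highest, then 2, 3 and 4.

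Il5ra (probe set 10546762), the alpha chain of the IL-5 receptor, lies on chromosome 6 from 106710375 to 106749037. Its signal was dim, at percentile 6.01 of the mean intensities of all genes, so these arrays say little about it. It was at 3.06, 3.04, 4.04 and 3.13 in PBS replicates 1 to 4 and at 3.38, 3.27, 3.15 and 3.38 in G-CSF replicates 1 to 4. PBS replicate 3 alone was above all G-CSF arrays, and each of the other 3 PBS arrays was below all of them. The log2 fold change was -0.02 ± 0.23 SE with all arrays (limma adjusted p = 0.976), with a 95% interval from -0.53 to 0.49. Without PBS replicate 3 it was 0.22 ± 0.13 SE, with a 95% interval from -0.07 to 0.51 (adjusted p = 0.676).

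The fitted change of both beta chain genes was larger than that of each alpha chain gene in these arrays. The upper 95% bounds of Csf2ra, Il3ra and Il5ra, 0.10, 0.44 and 0.49, lay below the lower bounds of Csf2rb and Csf2rb2, 1.12 and 0.98. Il5ra was dim, at percentile 6.01, so its bound says little about its transcript. Taken within each array, Csf2rb minus Csf2ra differed between the groups by 1.87 on the log2 scale, and the lowest G-CSF array was 1.19 above the highest PBS array. For Csf2rb minus Il3ra the difference was 1.54, with a gap of 0.86. Csf2rb2 minus Csf2ra differed by 1.86 with a gap of 0.58, and Csf2rb2 minus Il3ra by 1.53 with a gap of 0.15. These differences are given with no p, since the genes were chosen with their changes known. They compare changes and not levels, because probe sets differ in brightness per transcript.

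**Figure D2:**
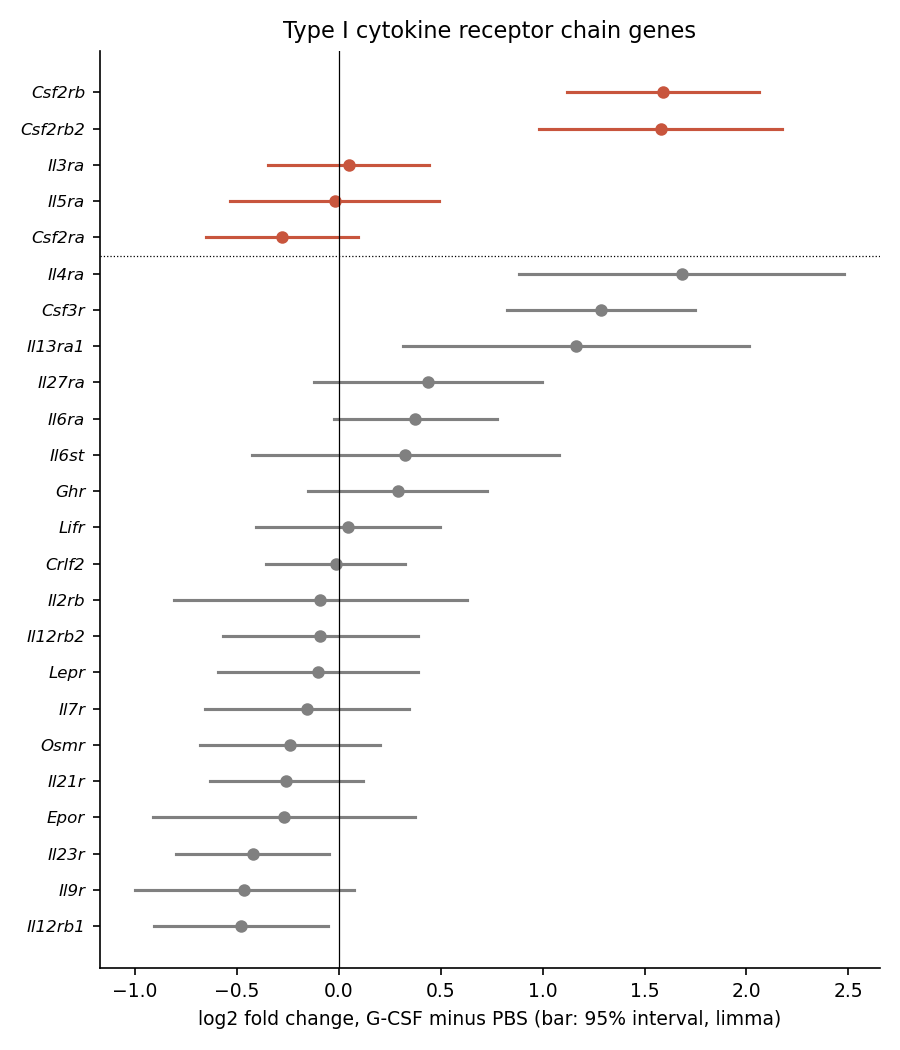
Log2 fold change, G-CSF minus PBS (horizontal axis), with 95% limma intervals as bars, for the 5 genes of this receptor family (red, above the dotted line) and 19 other type I cytokine receptor chain genes (grey). Csf2rb and Csf2rb2 lie at 1.59 and 1.58 and the 3 alpha chains between -0.28 and 0.05, while most other chains lie near 0 and Il4ra, Csf3r and Il13ra1 lie above 1.

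The promoters of Csf2rb2 and Csf2ra are shown because one belongs to a beta chain gene whose groups did not overlap and the other to an alpha chain gene whose groups did. The RefSeq table used here held promoters of 4 of the 5 genes, all but Csf2rb. Each sequence is the 250 bases before the start that the table uses in GRCm38.p6, 5′ to 3′ on the gene's strand. For Csf2ra that start lies slightly inside the gene span given above, so its window overlaps the gene, and for Il3ra the whole window lies inside the gene span. Capitals mark matches, on either strand, to 4 motifs: a STAT motif (TTCNNNGAA), a PU.1-type motif (GAGGAAG), a C/EBP-type motif (TTGCNNAA) and a GATA-type motif (AGATAA).
Csf2rb2, chr15:78305722-78305971, minus strand: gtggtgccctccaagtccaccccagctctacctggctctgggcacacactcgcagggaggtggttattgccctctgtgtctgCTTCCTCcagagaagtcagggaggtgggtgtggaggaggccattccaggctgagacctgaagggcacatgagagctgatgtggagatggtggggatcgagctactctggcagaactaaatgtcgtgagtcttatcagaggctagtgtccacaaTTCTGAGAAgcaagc
Csf2ra, chr19:61228419-61228668, minus strand: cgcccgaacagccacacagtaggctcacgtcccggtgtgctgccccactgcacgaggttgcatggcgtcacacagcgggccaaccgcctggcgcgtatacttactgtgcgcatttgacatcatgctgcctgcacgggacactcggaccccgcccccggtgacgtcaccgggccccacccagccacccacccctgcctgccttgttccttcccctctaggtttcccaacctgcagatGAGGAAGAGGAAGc

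The Csf2rb2 window held 1 STAT match, whose first base is 15 bases before the start, and 1 PU.1-type match on the reverse strand 168 bases before it. The Csf2ra window held 2 PU.1-type matches that share 1 base, at 14 and 8 bases before the start, and no STAT match. Among all 32851 promoters of this length, 7.02% held the STAT motif and 10.6% the PU.1-type motif. The Il3ra window, from 14346245 to 14346494 inside the annotated gene, held 1 C/EBP-type match, a motif of 9.56% of promoters, and the Il5ra window 1 GATA-type match, a motif of 9.99%. A match is a string of letters and was not tested as a binding site.

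The 3 ligand genes were dim and overlapped between the groups. Il3, the gene of IL-3, lay between 2.62 and 3.26 over the 8 arrays, and its log2 fold change was -0.18 ± 0.17 SE. Csf2, the gene of GM-CSF, lay between 3.25 and 3.96, with -0.16 ± 0.18 SE. Il5 lay between 4.04 and 4.49, with -0.04 ± 0.17 SE. None of the 3 passed in limma, with 0 at an unadjusted p under 0.05.

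Of the 20 listed genes of proximal signalling from the beta chain, 18 were measured and 0 passed in either direction over all genes. At an unadjusted p under 0.05, 3 were higher and 0 lower. The shares of all genes at that level, for this list and those below, were 6.07% higher and 2.94% lower. Their median log2 fold change was 0.23, against -0.07 for all genes, with 13 of 18 above 0. That median turned to -0.05 without PBS replicate 3, with 8 of 18 above 0. Jak2, the kinase bound to the beta chain, had 0.21 ± 0.23 SE, with 7.91 to 8.28 after G-CSF within the 7.28 to 8.34 of PBS. The 4 genes with the lowest p were the tyrosine kinase Fes (0.47 ± 0.17 SE), Stat3 (0.73 ± 0.26 SE), Stat5b (0.64 ± 0.27 SE) and Pik3cd, a catalytic subunit of PI3 kinase (0.71 ± 0.32 SE). For Stat3 the 4 G-CSF arrays were at 9.04 to 9.19 and the PBS arrays at 7.51 to 8.83, with PBS replicate 3 the lowest. Without that array Stat3 had 0.44 and Stat5b 0.34, and neither passed.

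Of 18 STAT5 and beta chain target genes, all measured, 1 rose over all genes and 0 fell, and 17 did not pass. At an unadjusted p under 0.05, 6 were higher and 1 lower, the cyclin Ccnd1 (-0.64 ± 0.24 SE), named here after its values were seen. The median log2 fold change of the list was 0.27, with 11 of 18 above 0, and it was 0.10 without PBS replicate 1 and 0.13 without PBS replicate 3. The gene that rose was Socs3, a feedback inhibitor of JAK kinases that STAT3 also induces. It was at 5.99, 6.04, 6.17 and 6.40 in PBS replicates 1 to 4 and at 7.27, 7.47, 7.55 and 7.75 in G-CSF replicates 1 to 4, with a log2 fold change of 1.36 ± 0.18 SE (limma adjusted p = 0.0198). It did not pass without G-CSF replicate 2 or 4 (adjusted p = 0.0911 and 0.0748), nor with the mean of its probe sets (1.32, adjusted p = 0.0536). Cish, a feedback inhibitor that is a classical STAT5 target, was at 7.59 to 8.41 after PBS and 8.04 to 8.62 after G-CSF, so its groups overlapped. Its log2 fold change was 0.54 ± 0.22 SE (adjusted p = 0.518). The mice received G-CSF, and through which receptor any gene of this list changed was not tested.

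The survival kinases Pim1 and Pim2 and the transcriptional repressor Bcl6 were the other target genes with the lowest p. The list sets no direction for its genes, so a rise was not read as more STAT5 or beta chain signalling. Pim1 was at 7.16 to 8.35 after PBS and 8.92 to 9.49 after G-CSF, a log2 fold change of 1.28 ± 0.26 SE. Pim2 was at 5.84 to 6.13 and 6.62 to 7.38, with 1.02 ± 0.19 SE. Bcl6 was at 5.29 to 6.66 and 6.96 to 7.66, with 1.49 ± 0.29 SE. None of these 3 passed (limma adjusted p = 0.152, 0.0975 and 0.104), although in each the groups did not overlap. Bcl6 passed without PBS replicate 4 (adjusted p = 0.0432).

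Other type I cytokine receptor chains, which share the receptor fold of this family and signal in complexes with JAK kinases, give a comparison within the receptor class. Of 23 listed, 19 were measured, 0 passed in either direction, and 3 were higher and 2 lower at an unadjusted p under 0.05. Their median log2 fold change was -0.09, and 8 of 19 were above 0. The median turned to 0.0043 without G-CSF replicate 3 and to 0.0071 without G-CSF replicate 4. It turned to 0.025 after renewed quantile normalization, and to 0.030 with PBS replicate 3 also left out. In these fits 10 or 11 of 19 were above 0. Over the 10 chains left by the filter to brighter genes the median was 0.16, against 0.13 for all genes left by it. The chains without overlap between the groups were Csf3r, Il4ra and Il13ra1 above and Il23r below. Csf3r, the G-CSF receptor, was at 7.59 to 8.51 after PBS and 9.11 to 9.49 after G-CSF, with 1.29 ± 0.21 SE (limma adjusted p = 0.0585). It passed without PBS replicate 3 (1.46, adjusted p = 0.0125).

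Il4ra, the IL-4 receptor alpha chain, was at 5.96 to 7.82 after PBS and 8.26 to 8.96 after G-CSF, with 1.68 ± 0.36 SE. Il13ra1, its partner in the IL-13 receptor, was at 4.75 to 5.46 and 5.51 to 7.42, with 1.16 ± 0.39 SE. Il23r, a chain of the IL-23 receptor, was at 3.92 to 4.43 and 3.59 to 3.82, with -0.42 ± 0.17 SE. These 3 did not pass (limma adjusted p = 0.188, 0.423 and 0.517).

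Among 11 transcription factors known to act on myeloid receptor genes, 0 passed in limma. At an unadjusted p under 0.05, 1 was higher and 0 lower, against 6.07% and 2.94% of all genes. Spi1, which encodes PU.1, was at 7.81, 7.78, 9.02 and 8.02 in PBS replicates 1 to 4, and at 8.74 to 9.15 after G-CSF. Only PBS replicate 3 lay within the G-CSF range. Its log2 fold change was 0.79 ± 0.27 SE, and without PBS replicate 3 it was 1.07 and passed (adjusted p = 0.0371). Irf8, Cebpe and Gfi1 had 0.35 ± 0.23 SE, 0.30 ± 0.22 SE and 0.15 ± 0.15 SE, and their groups overlapped.

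Beta chain genes are also expressed by myeloid cells outside the stem cell gate, and markers of such cells moved with the groups. The mean log2 intensity of 18 measured of 20 neutrophil markers was 7.92, 6.89, 7.24 and 7.15 in PBS replicates 1 to 4 and 10.23, 10.27, 8.02 and 8.74 in G-CSF replicates 1 to 4. All 18 had a positive log2 fold change and 0 passed in limma. In 8 the G-CSF values lay above all PBS values, against 3.37% of all genes. At an unadjusted p under 0.05, 17 were higher, against 6.07% of all genes. As many as 6 of the 18 passed once G-CSF replicate 3, with the lowest marker mean of its group, was left out, and 2 passed with the replicate number as a block and 1 with trended robust moderation. The granule protein Ltf had 2.33 ± 0.43 SE, the stefin Stfa2 4.55 ± 0.76 SE and Anxa1 2.14 ± 0.34 SE. Of 8 genes listed for the sort gate, 6 were measured and 0 passed. The list also holds Ptprc (CD45), which the sort description above does not name, at percentile 97.9 of the mean intensities of all genes. Cd48 and Itga2b, which the sort gated against, were at percentiles 82.1 and 81.1. Of the 6 measured, 2 were higher at an unadjusted p under 0.05. They were the myeloid integrin Itgam (1.68 ± 0.38 SE) and the granulocyte antigen Ly6g (1.37 ± 0.57 SE), which is in the neutrophil list too. The mean of 15 measured of 16 granulocyte-monocyte progenitor genes was 6.55 to 7.63 after PBS and 7.72 to 8.16 after G-CSF. All 15 were positive and 0 passed, with 9 higher at an unadjusted p under 0.05, and the protease Prtn3 had 1.38 ± 0.24 SE. In that list 1 gene passed without PBS replicate 3, 1 with array weights and 1 with the replicate number as a block.

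Within the G-CSF group, the neutrophil marker mean was higher in replicates 1 and 2 than in replicates 3 and 4. Csf2rb differed by at most 0.36 among the 4 arrays. Like the marker mean, it was highest in replicate 2 and lowest in replicate 3. Csf2rb2 was lowest in replicate 1 and highest in replicate 3. Over the 8 arrays, Pearson's r of Anxa1, Ltf and Stfa2 was 0.886, 0.874 and 0.855 with Csf2rb and 0.782, 0.748 and 0.713 with Csf2rb2. The groups separate in all of these genes. G-CSF replicate 3 and PBS replicate 1 had the closest marker means, 0.11 apart, and Csf2rb differed between these 2 arrays by 1.26 and Csf2rb2 by 1.95. Single markers still differed between them, with Stfa2 at 5.89 and 3.32, Ltf at 9.46 and 8.76 and Anxa1 at 9.02 and 8.20. How much the granulocyte-monocyte progenitor genes and neutrophil markers account for was not tested.

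**Figure D3:**
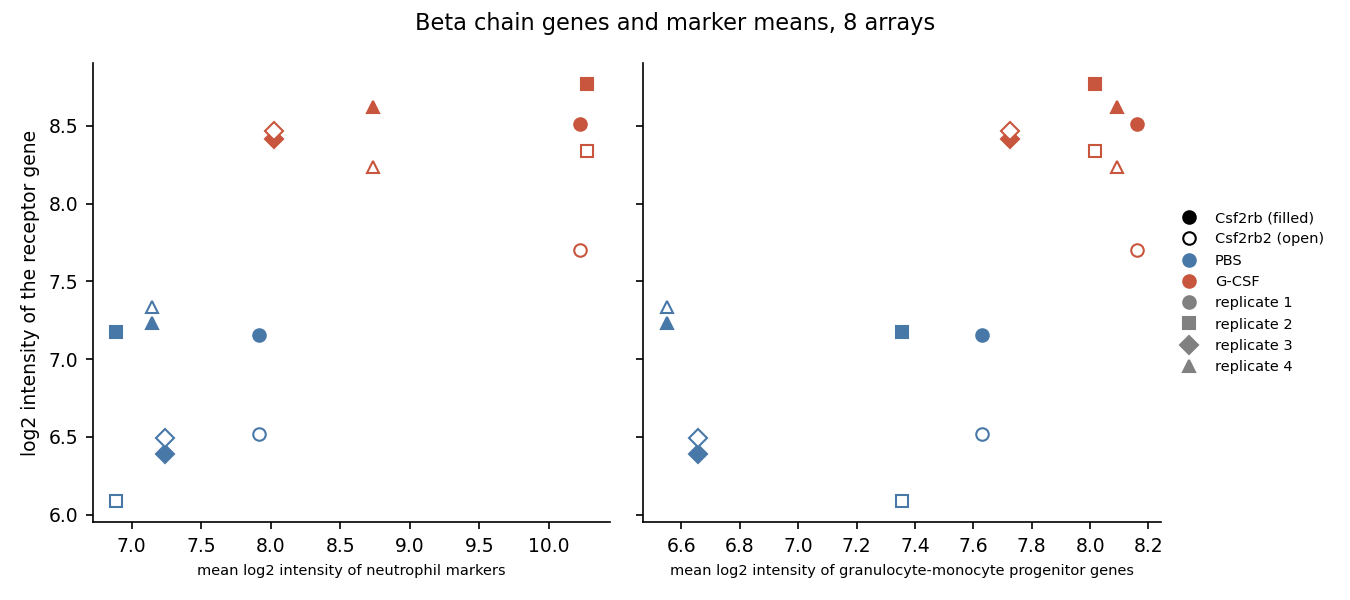
Log2 intensity of Csf2rb (filled) and Csf2rb2 (open) on the vertical axis against the mean log2 intensity of neutrophil markers (left) and granulocyte-monocyte progenitor genes (right) in each of 8 arrays. The G-CSF arrays (red) spread from 8.02 to 10.27 in neutrophil markers and from 8.41 to 8.77 in Csf2rb. In both panels all PBS arrays (blue) lie lower and to the left.

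For cells best known for IL-5 and IL-3 receptors, the mean of each marker list overlapped between the groups. The mean of 8 measured of 10 eosinophil markers, a list that holds Il5ra itself, was 5.17 to 6.32 after PBS and 5.47 to 6.80 after G-CSF. That of 11 basophil and mast cell markers was 4.37 to 5.04 and 4.38 to 4.77. In these lists 0 genes passed in limma, with 0 eosinophil markers and 1 basophil and mast cell marker, Hdc, at an unadjusted p under 0.05. Hdc, histidine decarboxylase, stands in the progenitor list too and had 1.43 ± 0.34 SE, with 5.81 to 6.20 after PBS and 6.58 to 8.34 after G-CSF, without overlap. The mean of 13 of 14 monocyte and macrophage markers was 6.92 to 7.99 after PBS and 6.98 to 7.99 after G-CSF, with 4 higher at an unadjusted p under 0.05 and 0 past the threshold. PBS replicate 1 was as high as the highest G-CSF array, and the other PBS arrays, at 6.92 to 6.96, were below all G-CSF arrays. The median log2 fold change of this list was 0.24, with 0.74 without PBS replicate 1 and 0.10 without PBS replicate 3. The groups did not overlap in Vcan (0.78 ± 0.18 SE) and Ccr2 (0.91 ± 0.24 SE), and they did in Lyz2 (0.77 ± 0.31 SE). The mean of 11 of 12 stem cell markers was 7.53 to 8.29 and 7.86 to 8.10, with 0 at an unadjusted p under 0.05.

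The list means of dendritic cell, lymphocyte, and erythroid and megakaryocyte markers overlapped as well. The 8 dendritic cell markers had a mean of 5.87 to 6.20 after PBS and 5.84 to 6.12 after G-CSF. The 9 of 11 measured lymphocyte markers had 5.37 to 6.04 and 5.56 to 5.84, and the 7 of 11 erythroid and megakaryocyte markers 7.05 to 8.42 and 6.49 to 7.56. In limma 0 of these genes passed, and the platelet chemokine Ppbp, with -1.25 ± 0.37 SE, was the 1 gene at an unadjusted p under 0.05. Its groups did not overlap, with 6.57 to 8.60 after PBS and 5.95 to 6.40 after G-CSF.

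The genes whose values over the 8 arrays were most like those of Csf2rb, by Pearson's r, are given as a description of likeness and without a test, since the groups separate in all of them. Serpinb1a, an inhibitor of neutrophil proteases, had r = 0.990 and Uhmk1, a kinase, 0.984. Bcl10, an adaptor of NF-kB signalling, had 0.982, the lysophospholipid acyltransferase Lpcat2 0.982, Vrk3 0.977 and the membrane protein Ifitm1 0.971. Most like Csf2rb2 were Macir (0.993), the synaptotagmin Syt11 (0.991), the CDK subunit Cks1b (0.980) and the GTPase Rab27a (0.976). Csf2rb and Csf2rb2 had r = 0.882 with each other. Of these 10 genes only Serpinb1a passed in limma, at 2.25 ± 0.31 SE (adjusted p = 0.0198), and it did not pass without G-CSF replicate 1, 2 or 4 (adjusted p = 0.0984, 0.0957 and 0.0998) or after renewed quantile normalization (adjusted p = 0.0599).

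**Figure D4:**
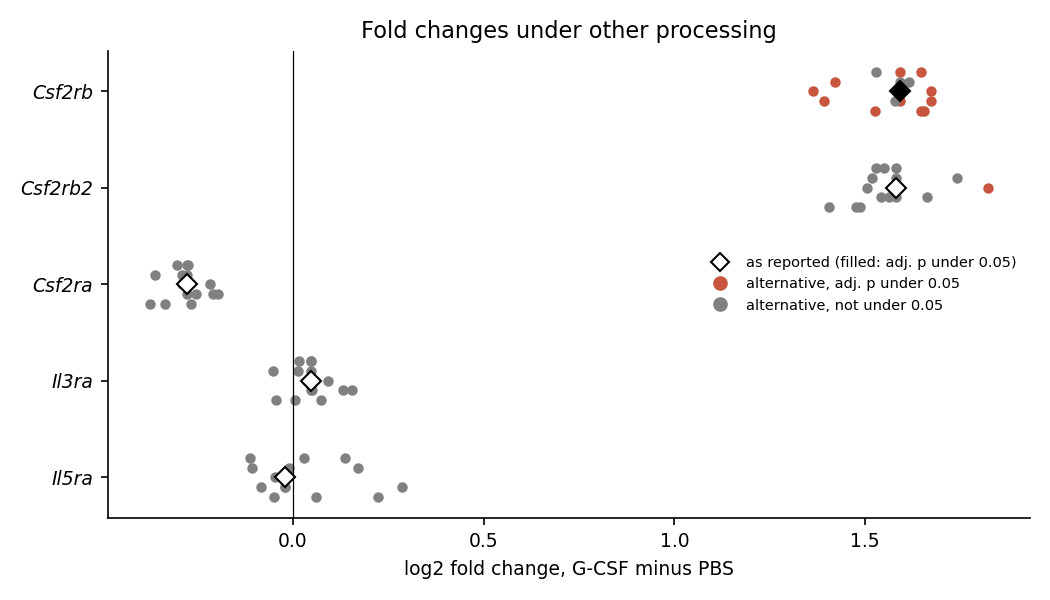
Log2 fold change, G-CSF minus PBS (horizontal axis), of the 5 receptor genes as reported (diamonds) and under 16 or 17 alternatives (dots, spread vertically for sight), coloured by whether the adjusted p was under 0.05. Csf2rb stays between 1.36 and 1.67 and Csf2rb2 between 1.41 and 1.82, well apart from the alpha chains, which stay between -0.38 and 0.29.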

How the data were processed

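The authors deposited linear intensity values, 1 for each probe set on each array, from 2.15 to 16163, and RMA is the only tool named in the submitters' processing notes. RMA usually returns log2 values, and its software, version and options are not stated in the notes or labels used here. Log2 was taken of the deposited intensities. Of 35556 probe sets, 21789 carried 1 gene symbol, 1621 several and 12146 none. For 999 genes with several probe sets the brightest by mean was kept, which left 19938 genes. Names and coordinates of the 5 genes were matched by gene identifier to a RefSeq table (GRCm38.p6). The number of arrays limits the precision.

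The groups were compared over all genes by limma 3.58.1 (lmFit, eBayes, 2-sided; R 4.3.3), with Benjamini-Hochberg adjustment and a threshold of 0.05. The members and lists were chosen with earlier results of these data known. Named genes were the 5 members, Csf3r, Socs3, Cish and Jak2, the 4 lowest p of each pathway list and 3 of each marker list, and those of highest Pearson r with Csf2rb (6) and Csf2rb2 (4), predicted and accession-like names aside. Slamf1 and Itga2b were added for the label check. Replicate numbers did not pair the arrays. The scripts were tested on simulated arrays. Alternatives were leaving out each array, renewed quantile normalization (also without PBS replicate 3), median centring, array weights, the replicate number as a block, trended robust moderation, brighter genes only, other probe set choices and another threshold. Probe sequences and protein sequences were not used here.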

Additional observations from a re-analysis of the deposited data

Results flagged for a closer look

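In 7 of 130 groups of 4 arrays, 1 array lay further from the others than Dixon's 95% limit for its gap divided by the range. About 1 in 20 groups does so by chance. For 4 of the 7 that array was PBS replicate 3: Csf2rb was 6.39 there against 7.15 in the next array (ratio 0.905), Il5ra 4.04 against 3.13 (0.910), Il3 3.26 against 2.90 (0.842), and Vrk3 5.85 against 6.89 (0.920). In G-CSF replicate 1, Vrk3 was 7.73 against 8.09 (0.930) and the B cell factor Pax5, a lymphocyte marker, 6.08 against 5.54 (0.830). Macir was 7.09 in PBS replicate 4 against 6.75 (0.839).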

How the results depend on the processing

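Both beta chain genes kept a positive and Csf2ra a negative log2 fold change under all 17 alternatives. Csf2rb passed in 13 of the 17 and Csf2rb2 in 1. With all 35556 probe sets fitted, in place of 19938 genes, the Csf2rb values were the same. It then had 1.59 ± 0.22 SE, against 1.59 ± 0.21 SE as reported, and did not pass (limma adjusted p = 0.122). What part the refitted error and the longer list of tests each played was not tested. In that fit 0 members and 0 probe sets in all were higher at the threshold. Leaving out each array in turn gave 1.39 to 1.67 for Csf2rb and 1.41 to 1.82 for Csf2rb2, with 0 to 2 members higher. Over those fits Il3ra ran from -0.053 to 0.16 and Il5ra from -0.11 to 0.22, and 3 to 30 genes were higher and 0 to 2 lower in all, against 19 and 0. Renewed quantile normalization gave -0.044 for Il3ra, 0.14 for Il5ra and 10 higher genes. Array weights, where PBS replicate 3 had the lowest weight of 0.166, gave 0.17 for Il5ra, 37 higher genes and 3 lower. Median centring gave 0.061 for Il5ra, and quantile normalization with PBS replicate 3 left out 0.29, with 1 lower gene. The cause of these reversals was not tested. At a threshold of 0.1, 2 members and 52 genes were higher. The scaling moved the share of genes above 0 from 41.7% to 48.5% with quantile normalization and 52.2% with median centring. The filter to brighter genes left out Il5ra, so it has 16 alternatives. Same-numbered arrays deviated together at r of -0.03 to 0.14, so the numbers were not taken as pairs. With the replicate number as a block, Csf2rb had 1.59 (adjusted p = 0.0335) and Csf2rb2 1.58 (adjusted p = 0.103), and no member's call changed.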

Other observations

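The eosinophil granule genes Epx and Prg2 were highest in G-CSF replicate 4, at 7.92 and 10.90, against 4.65 to 5.96 and 5.77 to 8.80 in the other arrays. Il5ra was 3.38 in that array, as in G-CSF replicate 1, where Epx was 5.12 and Prg2 6.43. Cpa3, a mast cell protease chosen here after its values were seen, was 8.26 in PBS replicate 3 and 4.49 to 6.35 elsewhere. Il5ra was highest in that array too. So were the dim ligand genes Il3, Csf2 and Il5, at 3.26, 3.96 and 4.49. That array also had the lowest interquartile range, 1.68. The cause of the high Il5ra value there was not tested.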
